A study of Mus musculus with 24 samples.

Results

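The mRNA content of the cortex and of the striatum of control mice was compared at postnatal day 21 on Illumina bead arrays, with 4 cortex and 4 striatum arrays out of 24 in the series. These 8 arrays are the ones titled Cortex Nestin Con and Striatum Nestin Con, and all 11114 detected genes entered the comparison. Each of the 4 cortex replicates, numbered 9 to 12, and the 4 striatum replicates, numbered 1 to 4, is brain tissue whose genotype is labelled control and which the design text calls WT. The other 16 arrays are control cerebellum and, for all 3 regions, conditional THAP1 knockouts. Nestin is an intermediate filament gene of neural progenitors whose promoter is widely used to delete genes across the nervous system. Whether the controls carry a Cre transgene or floxed alleles is not stated in the sources used here. The labels do not say which mouse each array came from, so p-values measure only the spread between these samples, and arrays of the 2 regions may share an animal.

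The cerebral cortex is built mainly of glutamatergic projection neurons arranged in layers, with a minority of GABAergic interneurons that release peptides beside GABA. The striatum holds almost no glutamatergic cell bodies: most of its neurons are GABAergic spiny projection neurons that carry dopamine receptors and peptides such as substance P and dynorphin, and a small population of large cholinergic interneurons supplies acetylcholine. Both tissues arise from neighbouring parts of the telencephalon, the pallium and the ganglionic eminences, and each keeps transcription factors of its origin into adult life.

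Expression is given as log2 of the background-corrected and quantile-normalized bead intensity, on which a difference of 1 is a fold of 2. Differences are cortex minus striatum throughout, so a positive value means higher in cortex. A gene was called where the limma test gave a Benjamini-Hochberg adjusted p under 0.05 over all 11114 genes. Detected probes averaged 12544 ± 572 on cortex arrays and 12986 ± 789 on striatum arrays (SD, n = 4 each, exact permutation test, two-sided, p = 0.457). Correlations between arrays ran from 0.983 to 0.988 among cortex arrays and from 0.976 to 0.989 among striatum arrays, against 0.953 to 0.965 between the regions. Within the striatum group replicate 3 stood apart for some genes, with low oxytocin and galanin and the highest dopamine receptor signals. The differences of Gal, Oxt and Slc5a7 are given below with and without it.

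The 2 regions differed broadly, with 39% of genes at an unadjusted p under 0.05. In all, 3234 genes (29.1%) were called, of which 1454 (13.1% of all tested) were higher and 1780 (16%) lower in cortex. An absolute difference of at least 1 was also reached by 626 (5.63%), of which 305 (2.74%) were higher and 321 (2.89%) lower in cortex. The median difference over all genes was -0.004. The cortex and striatum arrays did not overlap for 3023 genes (27.2%), among them 2582 of the 3234 called genes and 610 of the 626 with the larger differences.

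**Figure D1:**
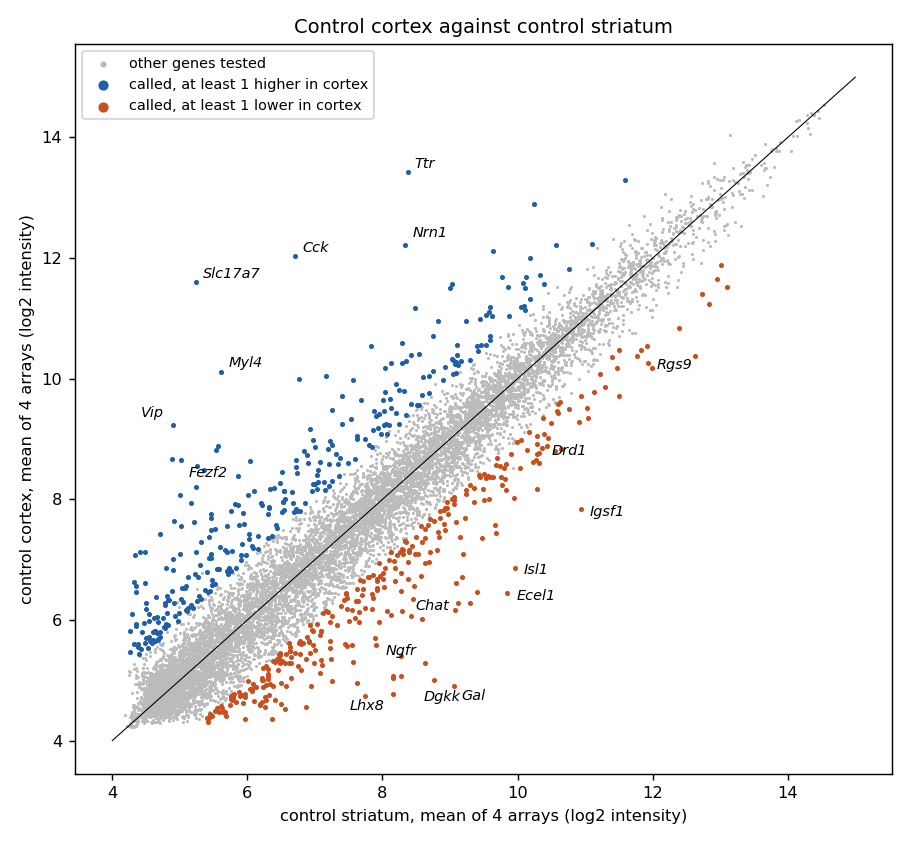
Mean log2 intensity of 4 control cortex arrays (vertical axis) against the mean of 4 control striatum arrays (horizontal axis) for 11114 genes, with the line of equal values. Called genes with a difference of at least 1 are blue above the line (305, higher in cortex) and orange below it (321, lower in cortex), and Slc17a7 lies farthest above the line with a difference of 6.37.

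The gene that separated the regions most was Slc17a7, which encodes VGLUT1, the vesicular transporter that fills cortical synaptic vesicles with glutamate. Its values were 11.53, 11.53, 11.76 and 11.61 in cortex, against 4.75, 5.66, 5.30 and 5.26 in striatum. All cortex arrays lay within a narrow band, and the striatum arrays were close to the floor of the assay, where the probe was detected on 3 of 4 arrays. The difference was 6.37 (SE 0.41, adjusted p = 1.13e-12), an 82.4-fold difference on this scale, whose offset understates changes of dim genes. Nrn1, which encodes neuritin, a membrane-anchored protein that promotes neurite growth, read 12.29, 12.28, 12.23 and 12.09 in cortex, against 8.47, 8.14, 8.34 and 8.40 in striatum. It was bright in cortex and well detected in striatum, with no overlap and a difference of 3.89 (SE 0.11, adjusted p = 1.41e-20). In the list of glutamatergic transmission, 6 of 13 measured genes (46.2%) were higher and 3 (23.1%) lower in cortex, against 13.1% and 16% of all genes. Beside Slc17a7 and Nrn1, the higher genes included Nptx2, a neuronal pentraxin that clusters AMPA receptors (2.13 (adjusted p = 1.23e-11)), and Slc30a3, which encodes the vesicular zinc transporter ZnT3. Slc30a3 averaged 6.64 ± 0.22 in cortex and 4.33 ± 0.07 in striatum, where it was detected on no array, which makes it at least 3.27-fold higher in cortex (adjusted p = 4.8e-13). The Ca2+/calmodulin-binding protein neurogranin (Nrgn) was 6.29-fold higher in cortex (12.90 ± 0.12 in cortex and 10.25 ± 0.47 in striatum, adjusted p = 1.65e-10).

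Transcription factors of cortical projection neurons were higher in cortex as a group. Of 26 measured genes of this list, 19 (73.1%) were higher and 0 lower in cortex, against 13.1% and 16% of all genes, and their median difference was 0.86, against -0.004 for all genes. The mean over the list ran from 8.30 to 8.36 on the cortex arrays, against 7.17 to 7.40 on the striatum arrays, so the groups did not overlap. Fezf2, which specifies neurons that project below the cortex, read 8.50, 8.66, 8.51 and 8.91 in cortex, against 5.23, 5.20, 4.52 and 5.12 in striatum. Striatum replicate 3 was the lowest of its group, and the regions were separated by more than 3 units, with a difference of 3.63 (SE 0.17, adjusted p = 1.08e-15). Tbr1, a T-box factor of deep-layer corticothalamic neurons, read 8.61, 8.95, 8.94 and 8.78 in cortex, against 5.37, 5.56, 5.58 and 5.65 in striatum. Its striatum arrays agreed closely with each other and the difference was 3.28 (SE 0.15, adjusted p = 1.2e-15). Nr4a2, an orphan nuclear receptor that marks claustrum and the deepest cortical layer, was higher by 2.42 (adjusted p = 5.56e-09). Zbtb18, a repressor needed for cortical neuron development, was higher by 2.30 (adjusted p = 2.44e-14), with 3 other probes also called and 1 dimmer probe not called at 0.28. Nr2f1, which patterns cortical areas, was higher by 2.14 (adjusted p = 4.22e-12) and Neurod2, a bHLH factor of excitatory neurons, by 2.10 (adjusted p = 6.57e-07). The 7 measured members that were not called included Cux1 (-0.14) and Tle4 (-0.22), an upper-layer and a deep-layer factor. Both are given by their brightest probe: the 2 dimmer Tle4 probes were called lower in cortex (-1.09 and -0.81), as was 1 of 4 dimmer Cux1 probes (-0.66), and with the mean of its probes Tle4 was called at -0.71, so that the count of 0 lower depends on the choice of probe.

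Of 24 measured layer markers of the cortex, 9 (37.5%) were higher and 4 (16.7%) lower in cortex, against 13.1% and 16% of all genes. The lower share was thus near that of all genes, and the median was 0.22. Ccn2, a secreted matrix protein found in the deepest layer, averaged 10.18 ± 0.10 in cortex and 8.04 ± 0.49 in striatum, and Stard8 averaged 8.87 ± 0.16 in cortex and 7.00 ± 0.18 in striatum. Their differences were 2.15 (adjusted p = 7.9e-09) and 1.87 (adjusted p = 6.2e-12). Some genes used to mark cortical layers were higher in striatum. Syt6, a synaptotagmin of corticothalamic cells, was detected on no cortex array and averaged 4.62 ± 0.23 in cortex and 5.94 ± 0.26 in striatum, at least 1.9-fold lower in cortex (adjusted p = 2.32e-07). Otof, the otoferlin gene, differed by -1.25 (adjusted p = 3.77e-06), and the forkhead gene Foxp2, which is also abundant in spiny projection neurons, by -0.99 (adjusted p = 0.000252).

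Transcription factors of the striatal lineage ran the other way. Of 19 measured, 13 (68.4%) were lower in cortex and 1 was higher, with a median of -0.85. Isl1, a LIM homeobox gene of the direct pathway and of cholinergic neurons, read 6.94, 6.98, 6.77 and 6.75 in cortex, against 10.01, 9.96, 9.98 and 9.87 in striatum. The striatum arrays lay very close to each other, and the difference was -3.09 (SE 0.14, adjusted p = 1.03e-15), an 8.54-fold lower level in cortex. Six3 and Sp9, which direct development of indirect-pathway neurons, were detected on no cortex array and were at least 2.54-fold and 2.3-fold lower there (adjusted p = 3.54e-12 and 7.54e-09). Rarb, a retinoic acid receptor of the striatum, differed by -1.77 (adjusted p = 2.5e-07), the ganglionic eminence homeobox gene Dlx1 by -1.39 (adjusted p = 8.87e-09), and Zfp521, a zinc finger gene, by -1.50 (adjusted p = 5.34e-10), while a second, undetected Zfp521 probe was not called. Bcl11b and Meis2, which striatal and cortical neurons both express, differed less, by -0.87 and -0.85 (adjusted p = 0.000313 and 0.00211). The forkhead factor Foxp1 was not called (-0.35 (adjusted p = 0.216)), but was at -0.55 without striatum replicate 1 (adjusted p = 0.0354). The only list member higher in cortex was Mef2c, an activity-dependent factor also abundant in cortical neurons, at 1.82 (adjusted p = 2.75e-09).

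Genes of striatal dopamine and cAMP signalling were mostly lower in cortex, but they were bright there too. Of 19 measured, 10 (52.6%) were lower and 2 higher in cortex, with a median of -0.61. The mean over the list ran from 8.31 to 8.52 on the cortex arrays, against 8.71 to 9.20 on the striatum arrays, and from 6.46 to 6.56 on control cerebellum arrays. Drd1, the dopamine receptor of the direct pathway, read 9.03, 8.63, 8.98 and 8.76 in cortex, against 9.64, 10.22, 11.08 and 10.52 in striatum. Replicate 3 was the highest and replicate 1 the lowest striatum array, no array overlapped between regions, and the difference was -1.52 (SE 0.24, adjusted p = 1.98e-05). Drd2, the receptor of the indirect pathway, read 7.34, 7.26, 7.54 and 7.28 in cortex, against 8.47, 8.30, 9.03 and 8.70 in striatum. Replicate 3 was again the highest striatum array, the regions did not overlap, and the difference was -1.27 (SE 0.18, adjusted p = 2.52e-06).

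Rgs9, whose product shortens dopamine receptor signalling and which is a defining striatal marker, averaged 10.26 ± 0.15 in cortex and 11.93 ± 0.23 in striatum. That is 3.19-fold lower in cortex (adjusted p = 3.42e-07), yet the cortex level was far above the 4.83 of control cerebellum. The same held for the G protein subunit gene Gng7, at 11.40 ± 0.17 in cortex and 12.73 ± 0.40 in striatum and 7.78 in cerebellum, with a difference of -1.33 (adjusted p = 2.37e-06). The orphan receptor gene Gpr6 of indirect-pathway neurons differed by -1.26 (adjusted p = 3.4e-06) and the phosphodiesterase gene Pde10a by -0.97 (adjusted p = 0.000382). Ppp1r1b, which encodes DARPP-32, the phosphatase inhibitor through which dopamine and cAMP act, averaged 11.23 ± 0.09 in cortex and 12.05 ± 0.30 in striatum, a difference of -0.82 (adjusted p = 0.000464), with -0.98 from a dimmer probe that was also called and -0.06 from the dimmest, which was not. The probes of Arpp21, a cAMP-regulated phosphoprotein gene, opposed each other: the brighter gave -0.61 (adjusted p = 0.00782) and the other 1.18 (adjusted p = 1.35e-08), so no direction is given for this gene. Rgs4 and Arpp19 were the list members higher in cortex (0.90 and 1.19, adjusted p = 0.000263 and 2.3e-07). The label check was therefore uneven. Cortical markers such as Slc17a7, Tbr1 and Fezf2 were near the floor on striatum arrays. Striatal markers such as Rgs9, Gng7 and Ppp1r1b were high on all 4 arrays labelled cortex. Six3 and Sp9 were detected on no cortex array, but their bounds of 2.54-fold and 2.3-fold are smaller than the 3.19-fold difference of Rgs9. Lack of detection alone therefore does not set these 2 genes apart from Rgs9. Whether other tissue was taken along was not tested.

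**Figure D2:**
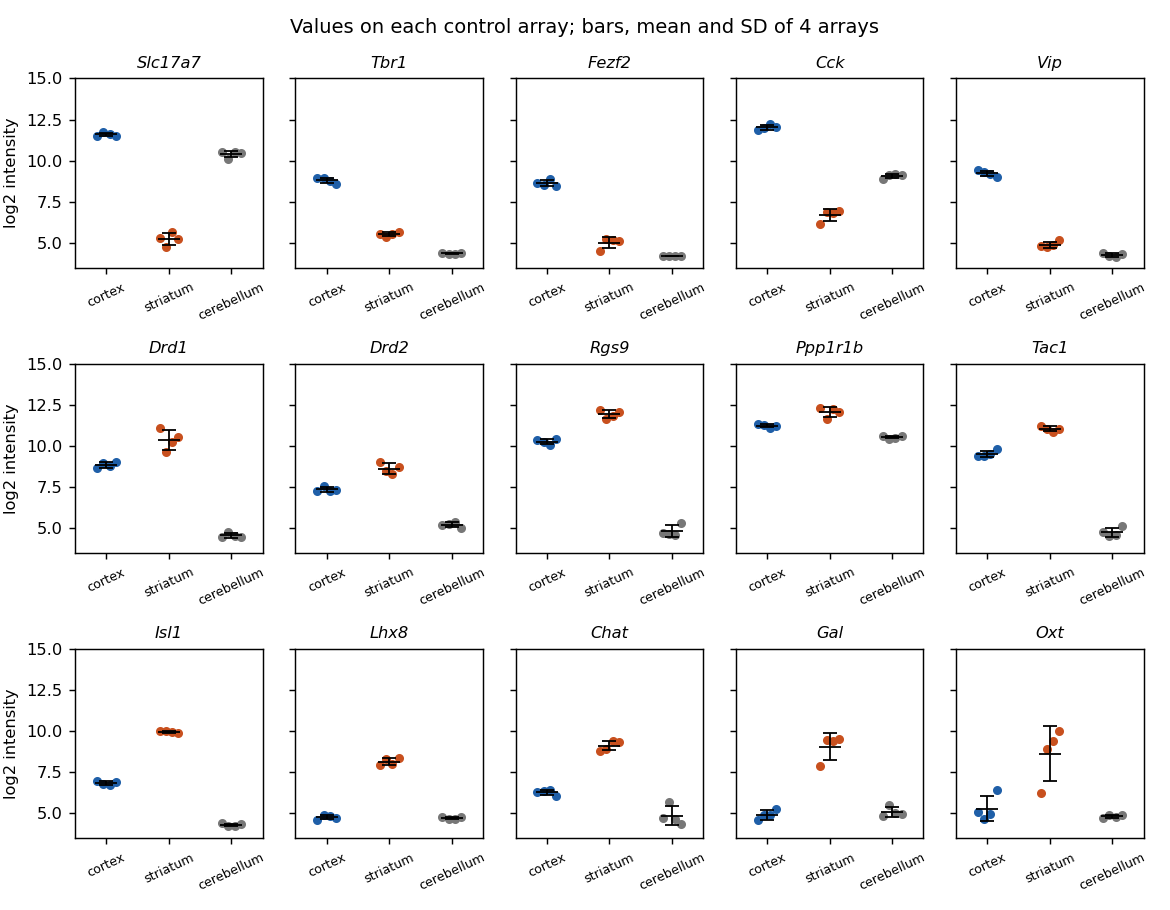
Log2 intensity of 15 genes on each control array of cortex (blue), striatum (orange) and cerebellum (grey), with black bars for the mean and SD of 4 arrays. The first row holds Slc17a7, Tbr1, Fezf2, Cck and Vip, all higher in cortex. In striatum Cck and Tbr1 were detected on every array, and Slc17a7, Tbr1, Fezf2 and Vip are near the floor. In the second row Drd1, Rgs9, Ppp1r1b and Tac1 are high in both forebrain regions. Drd2 reads 7.26 to 7.54 in cortex, near the cortex mean of all genes (7.41). Oxt and Gal spread widely among the striatum arrays.

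Cholinergic genes formed the group with the lowest median. Of 13 measured cholinergic and monoaminergic genes, 9 (69.2%) were lower and 1 higher in cortex, and the median difference was -1.30. Lhx8, a LIM homeobox gene that specifies forebrain cholinergic neurons, read 4.74, 4.63, 4.89 and 4.86 in cortex, against 8.28, 8.02, 7.93 and 8.37 in striatum. It was detected on every striatum array and on no cortex array, and was at least 8.8-fold lower in cortex (adjusted p = 9.29e-16). Chat, the enzyme that makes acetylcholine, read 6.06, 6.29, 6.34 and 6.44 in cortex, against 8.91, 9.41, 8.82 and 9.35 in striatum. The regions were clearly separated at -2.84 (SE 0.22, adjusted p = 3.56e-11). Slc18a3 encodes the vesicular acetylcholine transporter and lies within the Chat locus, its start 1059 bases downstream of the Chat start on the same strand of chromosome 14 in the RefSeq promoter table. It was detected on 1 of 4 cortex arrays and averaged 4.95 ± 0.30 in cortex and 7.63 ± 0.30 in striatum, a difference of -2.68 (adjusted p = 1.21e-12) that is close in size to that of Chat.

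The choline transporter gene Slc5a7 read 4.42, 4.35, 5.22 and 4.41 in cortex, against 4.86, 5.29, 8.68 and 7.19 in striatum. Striatum replicates 3 and 4 were high while replicates 1 and 2 lay close to the cortex arrays and the groups overlapped, so the difference of -1.90 (adjusted p = 0.00182) shrank to -1.18 without replicate 3. Ngfr, the p75 neurotrophin receptor of basal forebrain cholinergic neurons, was 8.54-fold lower in cortex (adjusted p = 3.7e-13). The homeobox gene Gbx2, detected on 1 of 4 cortex arrays, differed by -2.99 (adjusted p = 1.95e-13). Slc10a4, which encodes a vesicular protein of cholinergic and monoaminergic terminals, differed by -2.92 (adjusted p = 6.57e-14), and acetylcholinesterase (Ache) by -1.30 (adjusted p = 8.72e-07). The dopamine synthesis genes Th and Ddc were also lower, 2.03-fold and 2.01-fold (adjusted p = 0.00114 and 4.38e-05), although Th was detected on 1 of 4 cortex arrays. Tph2, the neuronal enzyme of serotonin synthesis, was the exception. It averaged 5.98 ± 0.44 in cortex and 4.54 ± 0.09 in striatum, where it was detected on no array, and was at least 2.08-fold higher in cortex (adjusted p = 1.64e-06).

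The largest difference in the striatum's favour was that of Gal, which encodes the peptide galanin. Its values were 5.27, 4.58, 4.91 and 4.88 in cortex, against 9.47, 9.40, 7.87 and 9.52 in striatum. Galanin was detected on 1 of 4 cortex arrays, replicate 3 was well below the other striatum arrays, no cortex array reached it, and the difference was -4.15 (SE 0.28, adjusted p = 2.56e-12), or -4.56 without that replicate. Dgkk, a diacylglycerol kinase gene, read 4.91, 4.90, 4.75 and 5.49 in cortex, against 8.23, 9.08, 8.85 and 8.92 in striatum. All striatum arrays were above all cortex arrays, with a difference of -3.76 (SE 0.18, adjusted p = 1.6e-15). Ecel1, a neuronal endopeptidase gene, read 6.70, 6.27, 6.46 and 6.37 in cortex, against 9.73, 9.96, 9.84 and 9.86 in striatum. Here the striatum arrays were close to each other and the difference was -3.40 (SE 0.16, adjusted p = 1.2e-15).

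Other genes among the 15 largest negative differences without overlap were Dlk1, a paternally expressed Notch-pathway ligand (-3.21), the immunoglobulin superfamily gene Igsf1 (-3.09), the homeobox gene Zfhx3 (-3.02) and Zic1 (-2.93), a zinc finger gene of septum and cerebellum that was higher still on control cerebellum arrays (11.95). Slc10a4l (-3.12) and AW551984 (-2.86) completed them, and the adjusted p of these 6 genes was at most 4.93e-10. Zic4 (-2.26) and Zic2 (-1.35) followed Zic1 and were likewise higher in cerebellum, at 9.05 and 8.35. Nkx2-1, which marks the ventral telencephalon, differed by -1.73 (adjusted p = 4.22e-08). Peg3, another paternally expressed gene, and Hap1, which encodes huntingtin-associated protein, differed by -2.11 (adjusted p = 2.12e-09) and -2.26 (adjusted p = 9.29e-16), the second with 1 of 3 dimmer probes not called.

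Oxt, which encodes oxytocin, a hormone of hypothalamic neurons, read 6.40, 5.11, 4.69 and 4.97 in cortex, against 8.93, 9.37, 6.23 and 9.99 in striatum. Striatum replicates 1, 2 and 4 were high, replicate 3 lay below the highest cortex array, and the groups overlapped. The difference was -3.34 (SE 0.49, adjusted p = 5.18e-06), and -4.15 without replicate 3. Avp, the vasopressin gene of the same neurons, read 7.15, 5.62, 4.96 and 5.13 in cortex, against 5.92, 6.16, 4.59 and 7.35 in striatum. Its highest value in each region came from replicates 9 and 4, the groups overlapped and no difference was called (-0.29 (adjusted p = 0.744)). On knockout arrays the regional differences were -6.42 for Oxt and -3.53 for Avp, and neither change between genotypes was called. In these bulk samples fewer cells of a type and less RNA per cell cannot be told apart, and the part of neighbouring tissue in these values was not tested.

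Peptide genes as a whole showed no common direction. Of 27 measured precursors, 9 were higher and 9 lower in cortex, 33.3% each way, and the median was -0.07. Cck, the cholecystokinin gene of cortical pyramidal cells and interneurons, read 12.07, 11.85, 12.02 and 12.22 in cortex, against 6.87, 6.84, 6.18 and 6.94 in striatum. It was the second largest positive difference in the data at 5.34 (SE 0.22, adjusted p = 7.1e-17), or 40.4-fold. Its receptor gene Cckbr was higher in cortex as well, averaging 10.54 ± 0.16 in cortex and 7.84 ± 0.14 in striatum, a difference of 2.71 (adjusted p = 5.83e-14). Vip, the vasoactive intestinal peptide of a class of cortical interneurons, read 9.04, 9.43, 9.30 and 9.20 in cortex, against 4.74, 4.89, 4.82 and 5.17 in striatum. The probe was detected on 1 of 4 striatum arrays, and the difference was 4.33 (SE 0.15, adjusted p = 2.42e-18).

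Cort, the cortistatin gene, was higher by 3.07 (adjusted p = 1.44e-12), and Grp, the gastrin-releasing peptide gene, by 2.73 (adjusted p = 2.56e-12). Bdnf, the neurotrophin that cortical axons deliver to the striatum, averaged 8.49 ± 0.33 in cortex and 5.36 ± 0.37 in striatum, a difference of 3.13 (adjusted p = 1.75e-11). Adcyap1, the PACAP gene, was higher by 1.70 (adjusted p = 2.63e-05), neuropeptide Y (Npy) by 1.03 (adjusted p = 2.03e-06) and somatostatin (Sst) by 0.69 (adjusted p = 0.00251). The peptides of spiny projection neurons were lower in cortex, with differences of -1.52 (adjusted p = 9.79e-09) for Tac1, the substance P precursor, and -1.03 (adjusted p = 1.88e-05) for Pdyn, the dynorphin precursor. Both were also bright in cortex, at 9.52 ± 0.20 in cortex and 11.04 ± 0.15 in striatum for Tac1 and 10.47 ± 0.24 in cortex and 11.50 ± 0.24 in striatum for Pdyn. Nts, the neurotensin gene, differed by -1.84 (adjusted p = 7.26e-08). Cartpt, the precursor of CART, a peptide of the ventral striatum and hypothalamus, read 8.66, 8.78, 8.88 and 8.91 in cortex, against 10.80, 10.58, 10.11 and 10.71 in striatum. Striatum replicate 3 was the lowest of its group but still above every cortex array, and the difference was -1.75 (SE 0.13, adjusted p = 1.64e-11).

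GABAergic interneuron markers went in both directions. Of 20 measured genes, 9 were higher and 6 lower in cortex, and their median was -0.04. Beside the peptides above, Pvalb, the parvalbumin gene of fast-spiking cells, averaged 11.52 ± 0.19 in cortex and 9.85 ± 0.25 in striatum, a difference of 1.67 (adjusted p = 1.39e-11). Htr3a, the ion-channel serotonin receptor of interneurons born in the caudal ganglionic eminence, was detected on no striatum array and was at least 1.71-fold higher in cortex (adjusted p = 8.34e-08). Calb2, the calretinin gene, went the other way and averaged 9.87 ± 0.04 in cortex and 11.29 ± 0.18 in striatum, a difference of -1.42 (adjusted p = 5.13e-09). Among 33 measured receptors for peptides, amines and cannabinoids, 7 were higher and 13 lower in cortex. Those lower included the tachykinin receptor genes Tacr3 (-1.67, with a dimmer probe not called) and Tacr1 (-1.27), the kappa opioid receptor gene Oprk1 (-1.46) and the orphan receptor gene Gpr83 (-1.36), all with adjusted p of at most 3.78e-06. The muscarinic receptor gene Chrm3 (1.48) and the orphan receptor gene Gpr22 (1.85) were higher in cortex (adjusted p = 4.74e-06 and 2.13e-10), as was Mas1, a receptor gene of the angiotensin system, which read 8.48, 8.67, 8.48 and 8.60 in cortex, against 4.67, 5.45, 5.28 and 5.63 in striatum and differed by 3.30 (adjusted p = 8.99e-12).

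Activity-regulated genes, which neurons switch on after synaptic input, were higher in cortex. Of 23 measured, 17 (73.9%) were higher and 0 lower, and the median was 0.99. The mean over the list ran from 8.12 to 8.43 on the cortex arrays, against 7.09 to 7.38 on the striatum arrays. Fos, the immediate-early transcription factor, read 8.74, 8.69, 8.68 and 9.24 in cortex, against 7.26, 6.88, 7.54 and 7.10 in striatum. Cortex replicate 12 was the highest and all cortex arrays exceeded the striatum arrays, at 1.64 (SE 0.32, adjusted p = 0.000191). Arc, whose product travels to active synapses, averaged 10.30 ± 0.35 in cortex and 8.35 ± 0.26 in striatum, a difference of 1.95 (adjusted p = 5.17e-08). Nr4a2 read 7.53, 7.47, 7.60 and 7.91 in cortex, against 5.10, 4.88, 5.38 and 5.46 in striatum. It did not overlap between regions and was detected on 2 of 4 striatum arrays. The phosphatase genes Dusp6 and Dusp1, which switch off MAP kinases, were higher by 1.54 and 1.12 (adjusted p = 2.95e-09 and 0.000426), Fosb by 1.05 (adjusted p = 0.000262), and the scaffold gene Homer1 by 0.82 (adjusted p = 0.000191), with 1 of 2 dimmer probes not called at 0.44. The early growth response gene Egr1, bright in both regions, was higher by 0.90 (adjusted p = 0.00145).

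Many genes of these peptide and activity lists are textbook targets of cAMP and calcium signalling through CREB, a factor that binds the letters TGACGTCA or its shorter form TGACG. The 150 bases before the start are shown for 5 of them, 4 that were higher in cortex and Cartpt, which was lower, because they carry this motif. They were taken from the RefSeq promoter table of build GRCm38.p6, run 5′ to 3′ on the gene's strand, and have each TGACG or its reverse complement CGTCA in capitals.
Cck: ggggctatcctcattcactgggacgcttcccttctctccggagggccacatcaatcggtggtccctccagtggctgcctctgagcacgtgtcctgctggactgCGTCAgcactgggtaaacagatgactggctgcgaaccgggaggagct
Vip: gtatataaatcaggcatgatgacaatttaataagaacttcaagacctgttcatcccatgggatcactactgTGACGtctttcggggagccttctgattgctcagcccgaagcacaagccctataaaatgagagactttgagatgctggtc
Fos: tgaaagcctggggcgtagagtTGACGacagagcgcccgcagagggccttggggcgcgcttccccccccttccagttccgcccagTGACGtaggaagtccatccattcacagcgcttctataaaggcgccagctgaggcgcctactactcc
Nr4a2: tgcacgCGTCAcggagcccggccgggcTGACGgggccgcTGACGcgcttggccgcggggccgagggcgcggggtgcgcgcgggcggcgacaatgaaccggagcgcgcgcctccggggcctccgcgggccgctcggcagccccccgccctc
Cartpt: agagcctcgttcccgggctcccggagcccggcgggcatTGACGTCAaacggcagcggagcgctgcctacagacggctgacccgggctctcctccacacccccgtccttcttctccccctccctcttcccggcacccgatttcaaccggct
The windows are chr9:121495695-121495844 on the minus strand for Cck, chr10:5639068-5639217 on the plus strand for Vip, chr12:85473740-85473889 on the plus strand for Fos, chr2:57124004-57124153 on the minus strand for Nr4a2 and chr13:99900684-99900833 on the minus strand for Cartpt. Cck held 1 short motif beginning 47 bases before the start and Vip 1 at 79 bases. Fos held 2, at 129 and 66 bases, and Nr4a2 held 3, at 144, 123 and 111 bases. Cartpt held 1 full TGACGTCA at 112 bases, which reads as a short motif on each strand.

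The short motif, searched on both strands in the same window, was present in 15% of the 27025 genes of the table and in 23.6% of the 8265 tested genes with an entry. Among activity-regulated genes it was present in 10 of the 14 with an entry that were higher in cortex and in 1 of the 4 that were not called. Among peptide precursors it was present in 7 of the 8 with an entry that were higher in cortex, in 4 of 8 that were lower and in 2 of 8 that were not called. Over all called genes with an absolute difference of at least 1, it was present in 18.3% of 218 genes higher in cortex and in 22.9% of 240 lower in cortex, close to the share of all tested genes. A match describes these letters only.

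**Figure D3:**
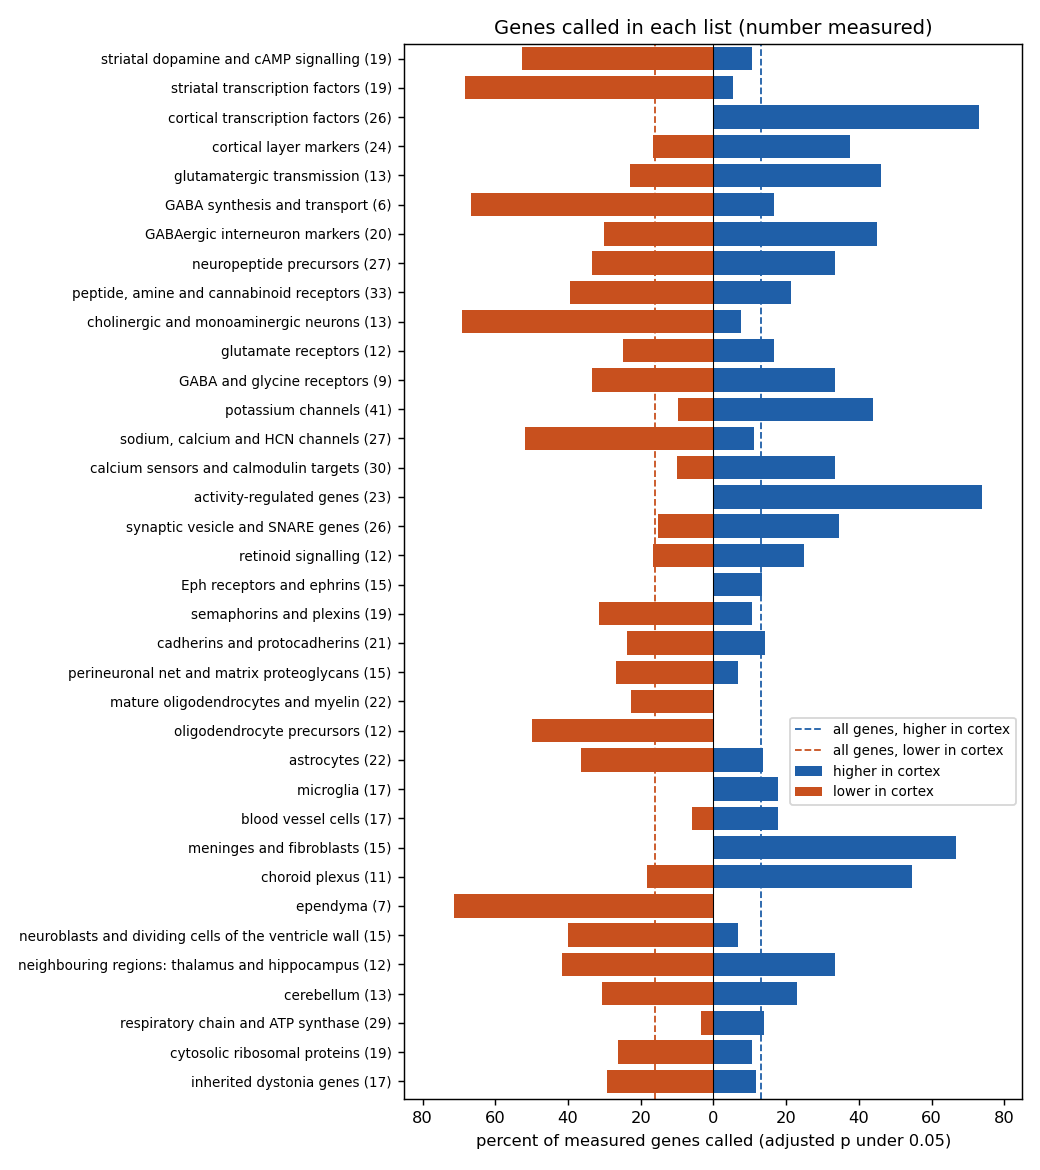
Percent of the measured genes of each list shown that were called higher (blue, to the right) or lower (orange, to the left) in control cortex than in control striatum, with dashed lines at the shares over all 11114 genes, 13.1% and 16%. Cortical transcription factors and activity-regulated genes extend farthest to the right, and ependymal, cholinergic and striatal transcription factor genes farthest to the left.

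Genes that make and move GABA were lower in cortex. Of 6 measured, 4 were lower and 1 higher in cortex, with a median of -0.90. Slc32a1, which encodes the vesicular GABA transporter, averaged 11.52 ± 0.11 in cortex and 13.10 ± 0.05 in striatum, a difference of -1.58 (adjusted p = 1.79e-12). Gad1, a GABA-synthesizing enzyme, differed by -0.81 (adjusted p = 0.000191). Abat, which breaks GABA down, differed by -0.98 (adjusted p = 2.47e-05), with another probe called at -1.09 and a dimmer one not called at -0.56. Slc6a11, a GABA transporter of astrocytes, averaged 6.02 ± 0.44 in cortex and 8.58 ± 0.26 in striatum, a 5.9-fold lower level in cortex (adjusted p = 1.01e-09). Among 9 measured GABA and glycine receptor subunits, 3 were higher and 3 lower in cortex. The lower ones included Gabrg1 (-1.21 (adjusted p = 8.47e-06)) and the glycine receptor subunit Glra2 (-1.02 (adjusted p = 4.63e-07)). Among 12 measured glutamate receptor subunits, 2 (16.7%) were higher and 3 (25%) lower in cortex, against 13.1% and 16% of all genes. The kainate receptor genes Grik5 and Grik1 differed by -0.92 and -0.81 (adjusted p = 4.77e-05 and 1.79e-05), the metabotropic receptor gene Grm8 by 0.88 (adjusted p = 4.92e-05), and the AMPA subunit Gria3 by 0.65 (adjusted p = 0.00142), with 2 further Gria3 probes not called.

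Potassium channel genes and calcium or sodium channel genes leaned in opposite directions. Of 41 measured potassium channel genes, 18 (43.9%) were higher and 4 lower in cortex, with a median of 0.36. Of 27 measured sodium, calcium and HCN channel genes, 3 were higher and 14 (51.9%) lower in cortex, with a median of -0.41. Kcnv1, a silent subunit that modifies other potassium channels, averaged 8.63 ± 0.38 in cortex and 6.04 ± 0.32 in striatum, a difference of 2.59 (adjusted p = 1.39e-10). Kcnk4, a two-pore channel opened by stretch and heat, was higher by 1.93 (adjusted p = 1.19e-10), while of 2 dimmer probes, neither detected in striatum, 1 was called at 0.81 and 1 was not at 0.29. Kcnh2, the ERG channel, ran against the others at -1.53 (adjusted p = 2.93e-08). In the second list the ryanodine receptor genes, which release calcium from internal stores, were lower in cortex, with differences of -1.91 (adjusted p = 1.1e-07) for Ryr1 and -1.50 (adjusted p = 7.07e-07) for Ryr3. Cacng5 and Cacng3 encode related auxiliary subunits that act on AMPA receptors. They moved oppositely, Cacng5 at -1.67 (adjusted p = 1.24e-08) and Cacng3 at 0.99 (adjusted p = 1.36e-05).

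Of 26 measured synaptic vesicle and SNARE genes, 9 (34.6%) were higher and 4 (15.4%) lower in cortex, against 13.1% and 16% of all genes. The lower share was thus near that of all genes. Stx1a, the plasma membrane SNARE syntaxin 1A, averaged 12.12 ± 0.10 in cortex and 9.63 ± 0.14 in striatum, a difference of 2.49 (adjusted p = 9.29e-16), and the vesicle glycoprotein gene Sv2b differed by 2.51 (adjusted p = 1.75e-11). Doc2b, a calcium sensor of release, and Rims3, an active zone gene, differed by -1.08 and -0.91 (adjusted p = 6.28e-06 and 7.04e-06). Of 30 measured calcium sensors and calmodulin targets, 10 (33.3%) were higher and 3 (10%) lower in cortex, the second below the 16% of all genes. Itpka, a calmodulin-activated inositol kinase of dendritic spines, was higher by 1.42 (adjusted p = 1.1e-06) and the calcium sensor Ncald by 1.38 (adjusted p = 6.73e-08), while Ncs1, another neuronal calcium sensor, averaged 5.97 ± 0.55 in cortex and 7.95 ± 0.20 in striatum, a difference of -1.98 (adjusted p = 5.58e-08). The small GTPase genes Rasl10a and Rasl11b were higher by 3.32 and 2.69 (adjusted p = 9.9e-13 and 2.95e-18).

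Lists of guidance and adhesion genes differed in their share of calls. Among 15 measured Eph receptors and ephrins, 2 were higher and 0 lower in cortex (13.3% called, against 29.1% of all genes), the larger being Ephb6 at 1.34 (adjusted p = 1.58e-08). Among 19 measured semaphorins and plexins, 2 were higher and 6 (31.6%) lower in cortex, against 16% of all genes. The higher ones were Sema7a (1.57 (adjusted p = 1.78e-10)), a membrane-anchored semaphorin whose second, mostly undetected probe was not called, and the secreted repellent Sema3a (1.26 (adjusted p = 2.42e-07)). Sema4g differed by -1.02 (adjusted p = 4.24e-05). Celsr3, a planar polarity cadherin that guides axon tracts, was the lowest of its list at -1.28 (adjusted p = 1.11e-08). Of the 21 measured genes of that list, 3 (14.3%) were higher and 5 (23.8%) lower in cortex, against 13.1% and 16% of all genes. Of 12 measured retinoid genes, 3 (25%) were higher and 2 (16.7%) lower in cortex, against 13.1% and 16% of all genes. Aldh1a1, which makes retinoic acid, averaged 7.94 ± 0.27 in cortex and 6.20 ± 0.60 in striatum, a difference of 1.74 (adjusted p = 1.51e-05).

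Lists of oligodendrocyte precursors and astrocytes held more genes lower than higher in cortex, and microglial genes did not. Of 22 measured genes of mature oligodendrocytes and myelin, 5 (22.7%) were lower, near the 16% of all genes, and 0 higher in cortex, with a median of -0.24. Mag, an axon-facing myelin protein, differed by -0.53 (adjusted p = 0.00962), a call that median scaling ended (-0.28). Mbp, the main structural protein of myelin, was near the top of the scale at 14.37 ± 0.08 in cortex and 14.38 ± 0.18 in striatum and was not called (-0.01 (adjusted p = 0.928)). Of 12 measured genes of oligodendrocyte precursors, 6 (50%) were lower and 0 higher in cortex. Gpr17, a receptor of committed precursors, differed by -1.03 (adjusted p = 1.61e-05), and the lineage factor Olig1 by -0.65 (adjusted p = 0.000487), or -0.42 and not called with median scaling. Of 22 measured astrocyte genes, 3 (13.6%) were higher and 8 (36.4%) lower in cortex, against 13.1% and 16% of all genes, with a median of -0.17. The lower ones were led by Itih3, a matrix-stabilizing secreted protein (-2.46 (adjusted p = 1.77e-10)), and angiotensinogen, Agt (-2.10 (adjusted p = 4.73e-10)). Other members went the other way, as Gfap (0.63 (adjusted p = 0.00689)) and Slc1a2 (0.58 (adjusted p = 0.0015)), or were not called, as Aqp4 (-0.02 (adjusted p = 0.906)). Microglial genes gave 3 of 17 (17.6%) higher, near the 13.1% of all genes, and 0 lower in cortex. Their median was 0.27, and the largest difference was that of Fcrls at 0.77 (adjusted p = 0.00421).

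Genes of tissue around the brain and of the ventricle wall also differed between the regions. Ttr, which encodes transthyretin, the chief secreted protein of choroid plexus, read 13.87, 13.12, 13.50 and 13.23 in cortex, against 10.08, 7.71, 9.16 and 6.54 in striatum. The cortex arrays were uniformly high, the striatum arrays spread over more than 3 units, and the difference was 5.06 (SE 0.79, adjusted p = 1.36e-05), with 14.18 on control cerebellum arrays. Of 11 measured choroid plexus genes, 6 were higher and 2 lower in cortex, and the mean over the list ran from 6.30 to 6.82 on the cortex arrays, against 5.56 to 6.12 on the striatum arrays. The other choroid plexus genes higher in cortex differed by less than Ttr. Folr1, a defining marker, averaged 5.61 ± 0.34 in cortex and 4.59 ± 0.30 in striatum, where it was detected on 1 of 4 arrays, a difference of 1.02 (adjusted p = 0.000904). Aqp1, a water channel gene, was detected on no striatum array with the probe used and averaged 5.80 ± 0.24 in cortex and 4.44 ± 0.11 in striatum, a difference of 1.35 (adjusted p = 0.000171), with a dimmer probe called at 1.00 and an undetected one not called. Clic6 and Otx2 were lower in cortex (-1.52 (adjusted p = 3.43e-06) and -0.89 (adjusted p = 0.00108)). Of 15 genes of meninges and fibroblasts measured, 10 (66.7%) were higher and 0 lower in cortex, and the mean over the list ran from 7.47 to 7.79 on the cortex arrays, against 6.15 to 7.30 on the striatum arrays. The collagen-binding proteoglycan gene Dcn read 9.95, 9.52, 9.77 and 9.91 in cortex, against 7.65, 7.45, 8.42 and 8.61 in striatum, with no overlap and a difference of 1.75 (adjusted p = 7.5e-07).

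Of 7 measured ependymal genes, 5 (71.4%) were lower and 0 higher in cortex, the mean running from 6.06 to 6.33 on the cortex arrays, against 6.52 to 7.32 on the striatum arrays. The largest was the ciliary dynein gene Dynlrb2 (-1.32 (adjusted p = 0.000285)), highest on striatum replicate 1. Of 15 measured genes of neuroblasts and dividing cells of the ventricle wall, 6 were lower and 1 higher in cortex. Igfbpl1, a marker of newborn neurons, was lower in cortex, with a difference of -1.14 (adjusted p = 3.45e-06), and the microtubule-destabilizing gene Stmn1 higher by 1.38 (adjusted p = 8.18e-05). Genes of thalamus and hippocampus gave 4 of 12 higher and 5 lower in cortex. The part of choroid plexus, meninges, ventricle wall or neighbouring regions in the other regional differences was not tested.

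Several of the largest positive differences were in genes better known from muscle or skin. Myl4, a myosin light chain of embryonic and atrial muscle, read 10.26, 9.95, 10.15 and 10.07 in cortex, against 5.73, 5.89, 5.15 and 5.68 in striatum. The groups were far apart, at 4.50 (SE 0.19, adjusted p = 1.13e-16). Tnnc1, the slow troponin C, averaged 9.99 ± 0.25 in cortex and 6.76 ± 0.41 in striatum, a difference of 3.23 (adjusted p = 2.24e-14). Tcap, the titin-capping protein of the sarcomere, averaged 7.13 ± 0.12 in cortex and 4.48 ± 0.20 in striatum and was detected on no striatum array, at least 4.62-fold higher in cortex (adjusted p = 1.22e-11). Krt12, a keratin of the corneal epithelium, read 9.27, 8.23, 9.40 and 7.78 in cortex, against 4.93, 4.48, 5.70 and 4.44 in striatum. It was far more variable than Myl4 within cortex but did not overlap, at 3.78 (SE 0.50, adjusted p = 9.26e-07). Igfbp6, a binding protein of insulin-like growth factors, was higher by 2.96 (adjusted p = 7e-10).

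Detection gave a stricter view of region-restricted genes. With detection on all 4 arrays of one region and no array of the other, for every probe of the gene, 32 of 11114 genes were restricted to cortex and 55 to striatum. The 2 counts do not start from equal numbers, as 679 genes were detected on no cortex array and 460 on no striatum array. Restricted refers to detection only, and a bound can be small, as for Syt6 at 1.9-fold. In cortex the largest bounds after Tcap were those of the hexokinase-domain gene Hkdc1 (at least 4.59-fold higher), Dkkl1 (at least 4.42-fold higher) and the netrin gene Ntn5 (at least 3.81-fold higher), with adjusted p of at most 1.06e-09. In striatum Lhx8 was followed by Six3, by Gdnf, which encodes a neurotrophic factor of dopamine neurons (at least 2.41-fold lower in cortex, adjusted p = 1.39e-06), and by Ret, which encodes the signalling receptor for that factor (at least 2.37-fold lower, adjusted p = 4.73e-07). Gdnf averaged 4.68 ± 0.18 in cortex and 6.28 ± 0.25 in striatum, and Ret averaged 4.72 ± 0.16 in cortex and 6.26 ± 0.27 in striatum.

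The control cerebellum arrays gave a level for the same genes outside the forebrain. Of the 305 genes higher in cortex by at least 1, cerebellum lay at or below the striatum mean for 116, between the means for 122 and at or above the cortex mean for 67. Of the 321 genes lower in cortex by at least 1, cerebellum lay at or below the cortex mean for 121, between for 119 and at or above the striatum mean for 81. Over all 11114 genes, cerebellum lay below both regions for 3904, a share close to 116 of 305 and 121 of 321. A cerebellum level below both regions is thus not particular to genes that differ between cortex and striatum. Vip, Tbr1 and Fezf2 belonged to those with cerebellum at or below striatum, at 4.28, 4.39 and 4.23. Slc17a7 had 10.41 in cerebellum, between the regions, and Ttr had 14.18, above cortex.

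The same regional contrast was available on arrays labelled knockout, 4 of each region, which share no array with the controls. Thap1 is the targeted gene. On control arrays it read 5.74, 5.37, 5.55 and 4.67 in cortex, against 5.20, 5.34, 5.53 and 5.14 in striatum, and the regions did not differ detectably (0.03 (adjusted p = 0.944)). On arrays labelled knockout it averaged 6.15 in cortex and 5.70 in striatum, with the probe's place relative to the deleted part not given, so it does not check the labels. In knockouts 2797 genes (25.2%) were called, 1256 (11.3%) higher and 1541 (13.9%) lower in cortex. Of the 3234 genes called in controls, 3150 (97.4%) had the same sign in knockouts, against 79% of all genes tested, and 2111 (65.3%, and 75.5% of the knockout calls) were also called there. Of the 626 with an absolute difference of at least 1, 625 had the same sign and 599 (95.7%) were also called.

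**Figure D4:**
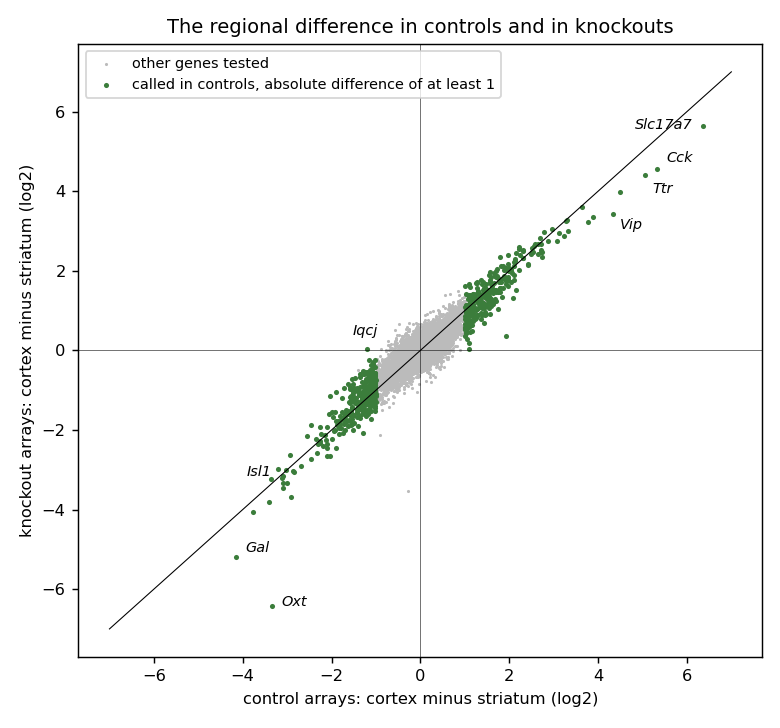
Cortex minus striatum on the log2 scale, on knockout arrays (vertical axis) against control arrays (horizontal axis), for 11114 genes, with the line of equal values. The 626 genes called in controls with an absolute difference of at least 1 (green) keep their sign with the exception of Iqcj. Oxt is farther from 0 in knockouts (-6.42) than in controls (-3.34), a change between genotypes that was not called.

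A direct test of whether the regional difference itself changed with genotype called 1 of 11114 genes (0.009%), with 484 at an unadjusted p under 0.05. That gene was Iqcj, which encodes a protein with a calmodulin-binding IQ motif. On control arrays it read 4.89, 4.63, 4.55 and 5.00 in cortex, against 6.12, 6.10, 5.95 and 5.67 in striatum, detected on 1 of 4 cortex arrays, a difference of -1.19 (adjusted p = 5.02e-07). On knockout arrays it averaged 5.44 in cortex and 5.41 in striatum, a difference of 0.03, and the interaction was 1.22 (adjusted p = 0.0453). The call was lost under 5 of 9 alternative settings. Among genes called in both genotypes, only Cuedc2 changed sign, with 0.54 in controls and -0.42 in knockouts, and its interaction was not called. Among inherited dystonia genes, Thap1 included, 2 of 17 measured (11.8%) were higher and 5 (29.4%) lower in cortex, against 13.1% and 16% of all genes. Tor1a, which encodes torsinA, a chaperone of the nuclear envelope, was one of those higher, at 0.60 (adjusted p = 0.00227), with a second probe not called at 0.45.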

How the data were processed

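Raw intensity for 25697 probes on 24 arrays, with a detection p-value for each, was deposited without normalization, per the file headers. Per the labels' protocols, TriZol extraction was followed by amplification to biotin-labelled cRNA. The submitters' processing notes name BeadStudio. A second deposited table holds the authors' processed intensity, with a method not given in the sources used here. It was used as an alternative.

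In limma 3.58.1 (R 4.3.3) noise was estimated from the detection p-values (nec, offset 16), followed by quantile normalization and log2. A filter at detection p 0.01 in at least 4 of the 24 arrays left 14994 probes, and the brightest probe stood for each gene. Of 11114 genes 10238 had a name. A fit of 6 group means with an intensity trend gave two-sided tests, adjusted by Benjamini-Hochberg at 0.05. Where no array of a region detected a gene, the bound divides the brighter mean by the mean, over the dim arrays, of the weakest signal still detected (or the gene's own, whichever is more). In simulated data of 11114 genes, 67, 67 and 66 genes were changed by 0.5, 1 and 2 on the log2 scale. Of these 37.3%, 95.5% and 100% were recovered, with 10 false calls. Far fewer genes were changed there than were called between the regions, so these rates do not carry over to the main comparison.

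Named genes come from the 15 largest differences each way without overlap, up to 6 called and 2 least changed members of each list, the 10 largest bounds each way, genes called for the interaction or of opposite sign in knockouts, and Thap1. The text names 163 genes, of which 41 fall outside this rule and were chosen after their values were seen. Not every gene that the rule gives is named, and most of the least changed list members are left out. Of the 163 genes, 151 were called and 12 were not, so the named genes do not represent their lists. Gfap, Slc1a2 and Aqp4, which the rule also gives, are not part of these counts or of the checks of named genes below. The lists and the comparison itself were chosen with earlier results of these data known. Lists are described by counts and medians, with no test of their own, and a further list is not reported here. Alternatives changed background, normalization, offset, probe filter, probe summary, variance model, array weights, source of values and arrays used.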

Additional observations from a re-analysis of the deposited data

Results flagged for a closer look

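Within groups of 4 arrays, a value was singled out where its gap to the nearest other array exceeded the 95% critical value of Dixon's test, as a share of the group's range. This held for 24 of 326 sets of 4 values of named genes (7.36%). Some of these genes, Psmd8 and Slc7a14 among them, were named for their spread within a region. The share therefore cannot be compared with the about 1 in 20 that chance alone gives. Cortex replicate 9 was below the other 3 for Psmd8 at 6.45 against 9.41 to 9.81. Cortex replicate 10 was above the other 3 for Ryr3 at 6.74 against 6.21 to 6.27 and Doc2b at 8.26 against 8.11 to 8.13. Cortex replicate 11 was above the other 3 for Slc5a7 at 5.22 against 4.35 to 4.42. Cortex replicate 12 was below the other 3 for Bcl11b at 10.17 against 10.27 to 10.28, Aqp1 at 5.44 against 5.88 to 5.93 and Slc7a14 at 5.20 against 8.00 to 8.26. Cortex replicate 12 was above the other 3 for Fos at 9.24 against 8.68 to 8.74. Striatum replicate 1 was below the other 3 for Stard8 at 6.73 against 7.05 to 7.12, Oprk1 at 5.87 against 6.51 to 6.58, Rgs4 at 10.89 against 11.56 to 11.62, Cacng3 at 8.14 against 8.73 to 8.81, Dusp6 at 8.91 against 9.60 to 9.63 and Psmd8 at 5.70 against 9.16 to 9.35. Striatum replicate 1 was above the other 3 for Slc32a1 at 13.17 against 13.07 to 13.08, Dynlrb2 at 8.26 against 7.41 to 7.49 and Ntn5 at 5.10 against 4.64 to 4.71. Striatum replicate 3 was below the other 3 for Fezf2 at 4.52 against 5.12 to 5.23, Cck at 6.18 against 6.84 to 6.94, Gal at 7.87 against 9.40 to 9.52 and Igsf1 at 10.49 against 11.07 to 11.09. Striatum replicate 3 was above the other 3 for Sst at 11.92 against 11.35 to 11.44 and Zfp521 at 8.73 against 8.10 to 8.18. Striatum replicate 4 was below the other 3 for Slc7a14 at 5.78 against 8.67 to 9.18.

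Iqcj was singled out because its regional difference changed between genotypes, with an interaction of 1.22 (knockout minus control, adjusted p = 0.0453). Under 5 of 9 alternative settings the interaction was not called.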

How the results depend on the processing

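The 3234 calls between control cortex and control striatum became 2323 to 3571 under 10 other settings, and 2782 to 3102 without 1 array. The calls with an absolute difference of at least 1, 626 in the main setting, fell to 238 with no background correction and 363 with an offset of 50, both of which shrink differences of dim genes, and ran from 609 to 652 without 1 array. The 32 genes restricted to cortex and 55 restricted to striatum became 39 and 56 at a detection p under 0.05. The calls in knockouts ran from 2038 to 3140. The 1 gene whose regional difference differed between genotypes was 0 by limma with no background correction (497 genes at an unadjusted p under 0.05), median scaling (317), array weights (625), no filter on dim probes (800) and detection on 4 of the 8 arrays (442). Of 151 named genes called, 148 kept the call and direction under all 18 alternatives. Arpp21 turned to 0.28 with the mean of its probes, and Arpp21, Mag and Olig1 lost the call with median scaling. Of the named genes not called, 2 gained a call, Tle4 with the mean of its probes (-0.71) and Foxp1 without striatum replicate 1 (-0.55). No paired analysis was possible because the regions share no replicate number and the labels name no animals. Signal over background limits dim genes: 679 genes were detected on no cortex array and 460 on no striatum array.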

Other observations

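Some genes varied far more within a region than the median SD of 0.19 over cortex arrays and 0.218 over striatum arrays, and were not called between regions. Zfp365 read 7.18, 7.64, 10.96 and 10.74 in cortex, against 5.40, 6.22, 10.53 and 10.23 in striatum, high on cortex replicates 11 and 12 and striatum replicates 3 and 4. Psmd8, a proteasome subunit gene, read 6.45, 9.41, 9.64 and 9.81 in cortex, against 5.70, 9.16, 9.16 and 9.35 in striatum, low on cortex replicate 9 and striatum replicate 1. Fcer1g, an Fc receptor chain of microglia, read 4.26, 8.45, 7.36 and 7.62 in cortex, against 4.38, 8.51, 7.13 and 7.24 in striatum, low on the same 2 arrays. Slc7a14 read 8.00, 8.26, 8.22 and 5.20 in cortex, against 8.67, 8.96, 9.18 and 5.78 in striatum, where the low arrays were replicate 12 and replicate 4. The chemokine gene Ccl21a read 4.84, 4.88, 8.81 and 8.61 in cortex, against 4.70, 4.38, 6.17 and 6.08 in striatum, higher on cortex replicates 11 and 12 and on striatum replicates 3 and 4 than on the others of each region. Eif2s3y, a gene of the Y chromosome, read 4.20, 6.89, 4.30 and 6.82 in cortex, against 4.20, 7.37, 4.28 and 6.76 in striatum, above the floor on cortex replicates 10 and 12 and striatum replicates 2 and 4. In these 6 genes, picked for their spread, the high and low arrays fell on the same places among cortex replicates 9 to 12 and striatum replicates 1 to 4. The labels do not pair these arrays, and the fit treats them as independent, so a level shared by a pair counts as spread within each region.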
